A study of Homo sapiens with 8 samples.

Results

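The comparison described here asks what carboplatin changed in lung cancer cells that also received rosiglitazone. It sets the 2 arrays of cells given rosiglitazone and carboplatin together (the combination) against the 2 arrays of cells given rosiglitazone only, which is 4 of the 8 arrays of the study. The arrays were chosen by their sample titles, and no measured value was used to choose them. The cells were a human adenocarcinoma line of non-small cell lung cancer that the labels do not name. All groups grew overnight in DMEM with 10% serum before the medium was changed, and RNA was taken after 24 h. Rosiglitazone was given at 1 µM, and cells that received carboplatin alone had 10 µM. The labels do not restate either dose for the combination. The remaining 4 arrays were 2 of control cells, which received control medium (DMSO in the series text), and 2 of cells given carboplatin alone. They give the corresponding carboplatin difference without rosiglitazone. Their levels do not enter the main difference directly. All 8 arrays were normalized and filtered together and share the estimate of spread behind the p-values, so the 2 comparisons are not fully separate. The labels do not say whether arrays of one group stem from different cultures, so p-values here reflect array-to-array spread that may be technical alone.

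Carboplatin is a platinum drug that binds DNA and links bases within and between its strands. Such lesions stall replication forks, activate the kinases ATR and ATM, and stabilise the transcription factor p53 where it is functional. p53 then raises genes for cell cycle arrest, DNA repair, apoptosis and its own feedback control, and lowers many mitotic genes indirectly through the inhibitor p21. Rosiglitazone is a ligand of PPARγ, a nuclear receptor that works with RXR and controls genes of fatty acid handling. The series title concerns synergy between PPARγ ligands and platinum drugs.

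Signals are given as log2(signal + 16) after quantile normalization, called the level, and differences are combination minus rosiglitazone on that scale with the standard error (SE) of a limma fit. The added constant makes the fold changes of dim probe sets too small. The median deposited signal was 46.4 and 54.3 on the rosiglitazone arrays and 37.2 and 52.2 on the combination arrays, so brightness differed within each group as well as between them. Rosiglitazone array 2 and combination array 2, the brighter array of each group, were the closest pair of all (Pearson correlation 0.984 across probe sets). The keratins of simple epithelium were bright, with KRT18 at 12.14 and 12.29 with rosiglitazone and 12.26 and 12.20 with the combination. Of 15 epithelial and lung adenocarcinoma markers on the array, 11 passed the filter on dim probe sets, and EPCAM, NKX2-1, SFTPD and CLDN4 did not. Only 3 of 14 fibroblast and endothelial markers and 3 of 12 blood cell markers passed it, and PTPRC, PECAM1 and VWF were below it.

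Of 13329 probe sets tested, 3 passed an adjusted p of 0.05 (limma, Benjamini-Hochberg), all higher in the combination, which is 0.0225% of those tested. They read CDKN1A, GDF15 and a transcript for which the annotation used lists no gene. Without adjustment 604 probe sets lay below a p of 0.05, 293 of them higher and 311 lower, where 5% of the tests would be 666.45. With 2 arrays against 2 no exact permutation test of one gene can reach 0.05, so the model across all probe sets carries every call.

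CDKN1A encodes p21, the inhibitor of cyclin-dependent kinases that halts the cell cycle after DNA damage. Its level (probe set 202284_s_at) was 7.48 and 7.55 on the rosiglitazone arrays and 9.34 and 8.75 on the combination arrays. The groups did not overlap, and the combination arrays differed from each other more than the rosiglitazone arrays did. CDKN1A rose by 1.53 ± 0.18 (SE, 2 arrays a group), or 2.89-fold, with an adjusted p of 0.0277 (limma) and a 95% interval of 1.13 to 1.94. In such bulk RNA a change in each cell and a change in the share of cells cannot be told apart. GDF15 encodes a secreted stress cytokine of the TGF-β family and is a known p53 target. Its level (221577_x_at) was 6.61 and 6.89 with rosiglitazone and 8.11 and 8.17 with the combination, again without overlap. GDF15 rose by 1.39 ± 0.16, or 2.63-fold (adjusted p = 0.0277, limma, 95% interval 1.04 to 1.75). The unnamed probe set 207813_s_at stood at 6.30 and 6.58 with rosiglitazone and at 8.06 and 7.84 with the combination. It rose by 1.50 ± 0.19, or 2.84-fold (adjusted p = 0.0277, limma).

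These calls depended on the arrays and settings of the fit more than the differences did. The difference of CDKN1A ran from 1.25 to 1.82 over 18 other settings and that of GDF15 from 1.08 to 1.53, while the calls stood in 8 and 6 of them. Leaving out either rosiglitazone array, either control array or combination array 1 left 0 probe sets past the threshold, and leaving out combination array 2 left CDKN1A alone. The unnamed probe set 221382_at was lower in the combination, at 7.06 and 6.59 with rosiglitazone and 4.86 and 5.33 with the combination. Its difference was -1.73 ± 0.26 (adjusted p = 0.0981, limma), and it passed the threshold in 2 of 17 other settings, the deposited scaling and median scaling, with adjusted p-values over the settings from 0.000600 to 0.9999.

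**Figure D1:**
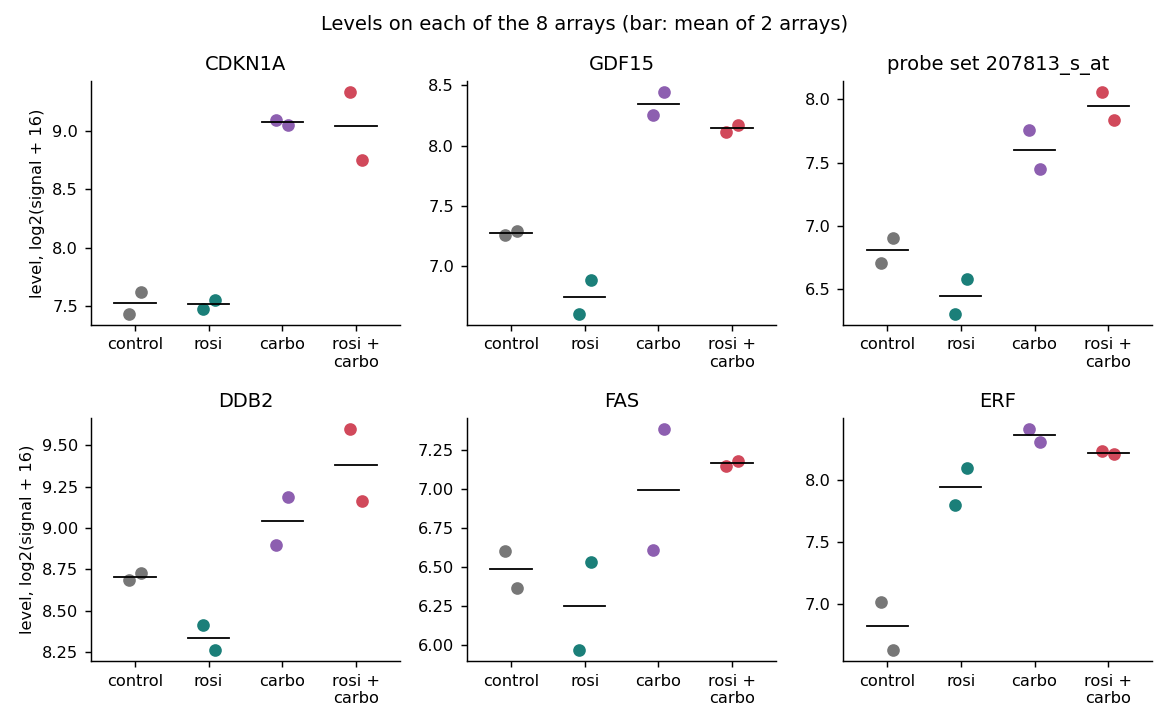
Levels, as log2(signal + 16), of 5 genes and 1 unnamed probe set on each of the 8 arrays, with a bar at the mean of the 2 arrays of a group (rosi, rosiglitazone; carbo, carboplatin). CDKN1A stood at 7.48 and 7.55 with rosiglitazone and at 9.34 and 8.75 with the combination, while ERF was already at 7.80 and 8.09 with rosiglitazone.

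The p53 target list held 46 genes, of which 36 had a probe set with a single gene symbol and 32 passed the filter. In these 32 genes the combination was higher in 25 and lower in 7, with a median difference of 0.33, against 0.01 over all 8023 genes measured. Both combination arrays lay above both rosiglitazone arrays for 20 of the 32 (62.5%), where the share was 17.1% of all genes. Both lay below for 1 of the 32, PERP, where the share was 13.6% of all genes. At an unadjusted p under 0.05, 14 of the 32 were higher, against 2.17% of all genes, and 0 were lower, against 1.79%. After adjustment over all probe sets only CDKN1A and GDF15 passed. The median kept its sign in every setting tried, from 0.19 with the deposited scaling to 0.40 with a pseudocount of 1. With the deposited scaling the median of all genes was -0.14, and 8 of the 32 were higher without overlap. The share of all genes under that scaling is not given here, so the 8 cannot be set against it. Over the other settings that keep all arrays, 8 to 20 genes of the list were higher without overlap. The same held for 216 to 2017 of all genes, whose number changes with the filter.

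Among the arrest genes, 6 of 7 were higher and 5 of these did not overlap (71.4% of the 7, against 17.1% of all genes). SFN encodes 14-3-3σ, which holds cells in G2, and was among the brightest genes of the list. It stood at 12.13 and 12.24 with rosiglitazone and at 12.48 and 12.41 with the combination, a difference of 0.26 ± 0.08. A pair of other SFN probe sets gave 0.54 and 0.34. PLK2, a stress-induced polo-like kinase, was at 8.05 and 8.31 against 8.70 and 8.80 (0.57 ± 0.16), and its relative PLK3 at 6.12 and 5.21 against 6.63 and 6.33 (0.81 ± 0.29). CCNG1, a cyclin induced by p53, differed by 0.23 ± 0.15 without overlap. GADD45A, which binds PCNA and p21, was at 8.01 and 8.20 with rosiglitazone and 8.46 and 7.72 with the combination, so its 2 combination arrays lay on either side (difference -0.01 ± 0.21, 95% interval -0.47 to 0.45). GTSE1, a G2 and S phase protein that restrains p53, differed by 0.00 ± 0.16.

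Of the apoptosis genes, 6 of 9 were higher, all 6 without overlap (66.7% of the 9, against 17.1% of all genes). FAS, the death receptor for FAS ligand, was at 5.96 and 6.53 with rosiglitazone and 7.15 and 7.18 with the combination, a difference of 0.92 ± 0.27. Of its 4 probe sets, 204781_s_at gave 0.76 and a pair ending in _x_at gave 0.33 and 0.23. TNFRSF10B, the TRAIL receptor DR5, differed by 0.42 ± 0.15, although a pair of its other probe sets gave -0.27 and 0.01. AEN, an exonuclease that degrades DNA during apoptosis, was at 6.25 and 6.93 with rosiglitazone and 7.78 and 7.32 with the combination (0.96 ± 0.26). PHLDA3, an inhibitor of AKT, differed by 0.49 ± 0.17 and EDA2R, a receptor of the TNF family, by 0.42 ± 0.27. BAX, which permeabilises the mitochondrial outer membrane, was at 5.43 and 6.87 with rosiglitazone and 7.06 and 6.97 with the combination. Its difference of 0.87 ± 0.38 rests mostly on rosiglitazone array 1, and a second BAX probe set gave 0.14. Lower in the combination were PERP, a desmosomal protein (-0.40 ± 0.20), PMAIP1, the BH3-only protein NOXA (-0.24 ± 0.18, where a second probe set gave 0.21), and TP53I3, a quinone oxidoreductase (-0.16 ± 0.15). The latter pair overlapped between the groups.

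DDB2 recognises damaged DNA for nucleotide excision repair. Its level was 8.41 and 8.26 with rosiglitazone and 9.60 and 9.16 with the combination, a difference of 1.04 ± 0.17 or 2.06-fold that did not pass the threshold (adjusted p = 0.160, limma). Of the other repair members, FANCC of the Fanconi anemia core complex differed by 0.18 ± 0.17, and XPC, the damage sensor of the same repair route as DDB2, by -0.01 ± 0.14 (95% interval -0.33 to 0.31). In the feedback group, PPM1D, the phosphatase WIP1 that turns off p53 and its kinases, was at 6.07 and 6.55 with rosiglitazone and 6.62 and 7.14 with the combination (0.57 ± 0.26). MDM2, the ubiquitin ligase that degrades p53, had a dim probe set at 6.33 and 5.05 against 6.44 and 6.02, and its groups overlapped (0.54 ± 0.37). RCHY1, another ubiquitin ligase of p53, differed by -0.07 ± 0.19.

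Of the 10 measured members with roles in metabolism and stress, 9 were higher and 6 did not overlap (60% of the 10, against 17.1% of all genes). Next to GDF15 these 6 included RPS27L, a ribosomal protein paralog induced by p53, at 10.46 and 10.71 with rosiglitazone and 10.90 and 11.24 with the combination (0.49 ± 0.13). The others were SESN1, a sestrin that restrains mTORC1 (0.45 ± 0.21), TRIAP1, an inhibitor of apoptosis (0.39 ± 0.17), DRAM1, a lysosomal protein of autophagy (0.27 ± 0.16), and TIGAR, a fructose bisphosphatase (0.24 ± 0.16). The groups overlapped for ZMAT3, an RNA-binding protein (0.26 ± 0.33), TP53I11 (0.10 ± 0.27), SAT1, a polyamine acetyltransferase (0.09 ± 0.14), and FERMT1, a kindlin of cell adhesion and the one lower member (-0.38 ± 0.26). The list members CCNG2, POLH, PLTP and TNFRSF10C had probe sets that did not pass the filter.

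**Figure D2:**
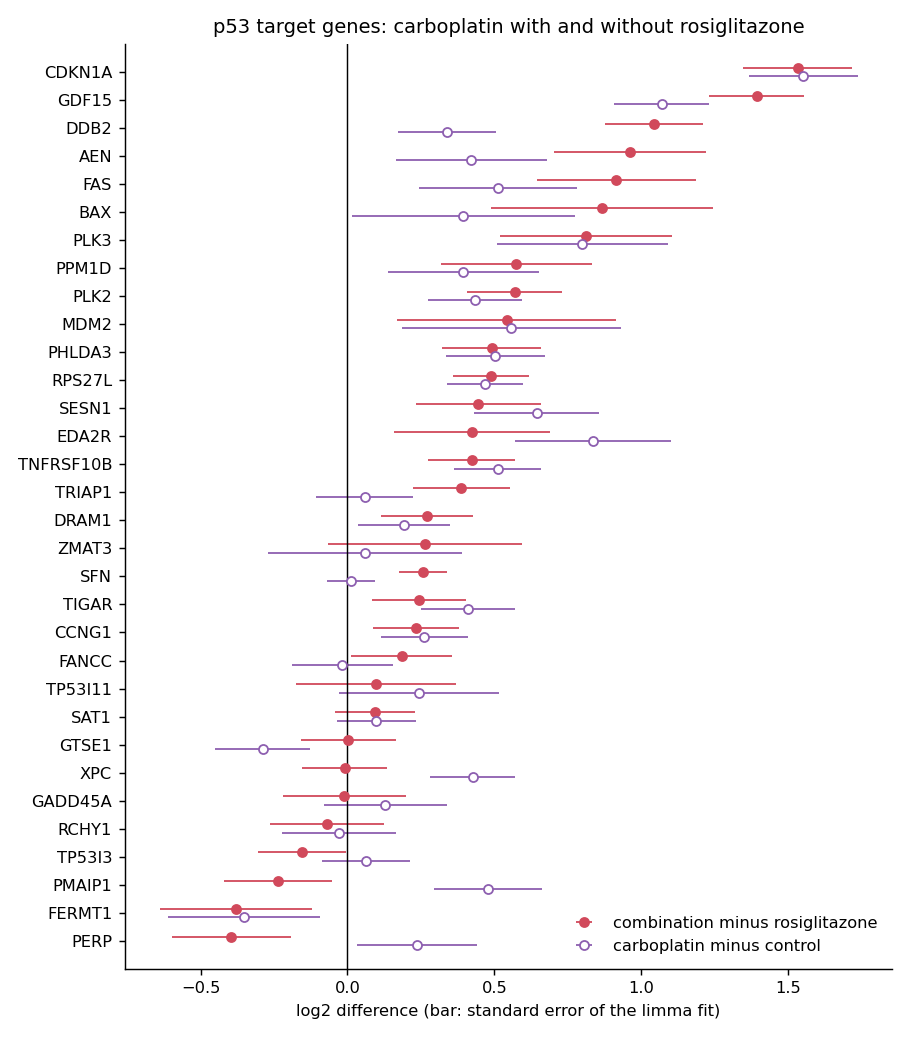
Log2 differences with standard errors for the 32 measured p53 target genes, filled for the combination minus rosiglitazone and open for carboplatin minus control, each from 2 arrays against 2. Filled points run from -0.40 for PERP to 1.53 for CDKN1A, and 28 of the 32 open points lie above 0.

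Promoter sequence was searched for the p53 half-site consensus, the decamer that p53 binds in pairs, in RefSeq windows from 250 bases before to 50 after each start (GRCh38.p14). The consensus reads the same on both strands. A window was found for 28 of the 32 genes, 45 windows in all, and 6 of these (13.3%) held a half-site, against 6.63% of all 35116 windows. The CDKN1A and GDF15 windows held none, which says only that these letters are not in those windows. Every site found is shown, in lower case with half-sites in capitals, 5′ to 3′ on the strand of the gene. Their genes were all higher in the combination without overlap, as were 62.5% of the 32 list genes. A link between the half-sites and the differences was not tested.
DDB2, chr11:47214975-47215004, plus strand: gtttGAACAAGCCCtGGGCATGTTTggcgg
AEN, chr15:88621296-88621325, plus strand: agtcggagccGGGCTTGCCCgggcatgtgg
FAS, chr10:88991299-88991328, plus strand: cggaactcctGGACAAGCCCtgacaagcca
PLK2, chr5:58460199-58460228, minus strand: tggcgggacaAGACTTGCTTcccggccacg
RPS27L, chr15:63157517-63157546, minus strand: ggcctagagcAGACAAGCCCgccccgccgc
SESN1, chr6:109009018-109009047, minus strand: attgtcgtctGGACAAGTCTccacaagtca

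DDB2 was the only one of these windows with 2 half-sites, and they lie 1 base apart, beginning at bases 6 and 17 of the transcript. The half-sites of the other genes begin before the start, at -34 for AEN, -49 for SESN1, -59 for RPS27L, -122 for FAS and -132 for PLK2. A match describes the sequence and was not tested as a binding site.

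The carboplatin difference without rosiglitazone, from the other 4 arrays, gave 2 calls among the 13329 probe sets (0.015%), CDKN1A and ERF. No call was left there with the deposited scaling, median scaling, no filter, no intensity trend or the replicate block. CDKN1A was at 7.43 and 7.62 in control and 9.10 and 9.06 with carboplatin, a rise of 1.55 ± 0.18 (adjusted p = 0.0257, limma). The difference between its rises with and without rosiglitazone was -0.02 ± 0.26. GDF15 was at 7.26 and 7.29 in control and 8.25 and 8.44 with carboplatin (1.07 ± 0.16, adjusted p = 0.161), so its rosiglitazone arrays lay below control and its combination arrays below carboplatin alone. The probe set 207813_s_at differed by 0.80 ± 0.19 without rosiglitazone. DDB2 was at 8.69 and 8.73 in control and 8.90 and 9.19 with carboplatin, a difference of 0.34 ± 0.17. Its difference with rosiglitazone was larger by 0.71 ± 0.24, which did not pass the threshold (adjusted p = 0.819, limma).

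For the 32 p53 targets the median difference was 0.39 without rosiglitazone and 0.33 with it. Both carboplatin arrays lay above both control arrays for 21 of the 32, where 14.6% of all genes did so, and below for 2, where 20.6% did so. The 15 genes higher without overlap in both comparisons were 75.0% of the 20 with rosiglitazone and 71.4% of the 21 without. Over all genes, 192 did so, which was 14% of the 1374 with rosiglitazone and 16.4% of the 1168 without. As a description across genes, which are not independent replicates, the 2 differences correlated with r = 0.74 over the 32 p53 targets and r = -0.06 over all 8023 genes. PMAIP1 was the p53 target whose differences lay farthest apart on either side of 0, at 0.48 ± 0.18 without rosiglitazone and -0.24 ± 0.18 with it, and their difference did not pass the threshold (adjusted p = 0.819, limma).

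**Figure D3:**
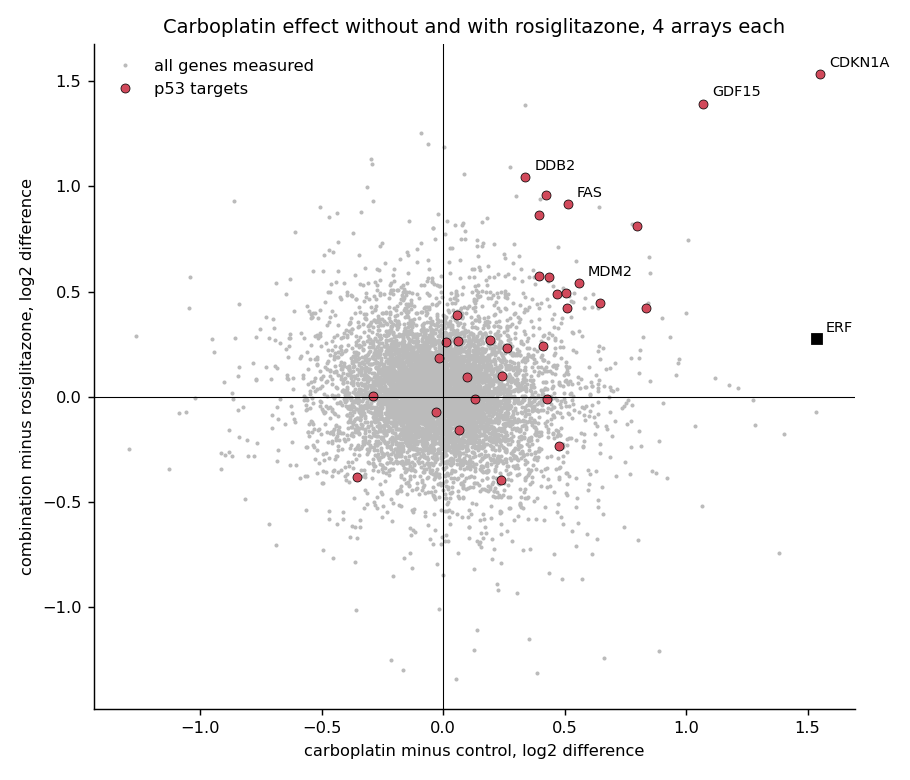
Log2 difference of the combination against rosiglitazone (vertical) and of carboplatin against control (horizontal) for 8023 genes, 1 probe set each, with the 32 p53 targets in red and ERF as a square. CDKN1A at 1.53 and GDF15 at 1.39 stand highest of the p53 targets, and the cloud of all genes shows no common slope (r = -0.06).

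No probe set passed the threshold for the difference between the carboplatin effects with and without rosiglitazone (limma, 0 of 13329 or 0%, smallest adjusted p 0.313), and 793 had an unadjusted p under 0.05. With the deposited scaling 3 were called, all lower, one of them PLCG1. ERF, a repressor of the ETS family that MAP kinase signalling controls, was at 7.01 and 6.62 in control and 8.41 and 8.30 with carboplatin, a rise of 1.54 ± 0.18 (adjusted p = 0.0257). Its level was already 7.80 and 8.09 with rosiglitazone and 8.23 and 8.21 with the combination, so the carboplatin difference there was 0.27 ± 0.18. The difference with rosiglitazone minus that without was -1.26 ± 0.25 for ERF (adjusted p = 0.819, limma). PLCG1, phospholipase C-γ1, stood at 5.58 and 6.34 in control, 7.09 and 6.61 with carboplatin, 6.63 and 6.74 with rosiglitazone and 5.38 and 5.57 with the combination. Its carboplatin differences were 0.89 and -1.21, which are -2.10 ± 0.39 apart, but a second PLCG1 probe set differed by only -0.03 between combination and rosiglitazone. PCOTH had -1.58 ± 0.34 for the same quantity. In the other direction were ATP2C1, the calcium and manganese pump of the Golgi (1.56 ± 0.32), CCDC85B, a coiled-coil protein (0.86 ± 0.22), and DNM1, a dynamin of vesicle scission (0.85 ± 0.21). Between combination and rosiglitazone CCDC85B and DNM1 both differed by 0.48, while other probe sets of these genes gave -0.38 and -0.29. The other ATP2C1 probe sets gave 0.33 and 0.25 for the difference between the carboplatin effects, well below the 1.56 of the first.

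Outside the p53 target list, none of the genes of smallest p that were higher without overlap passed the threshold (adjusted p = 0.9997 each, limma). CYFIP2 is a subunit of the WAVE actin regulator that p53 is known to induce. It was at 5.30 and 5.87 with rosiglitazone and 7.18 and 6.77 with the combination (1.39 ± 0.31). Its second probe set gave 1.13, with rosiglitazone at 4.43 and 4.84, the combination at 5.56 and 5.98 and control at 5.61 and 5.59. With carboplatin alone the first CYFIP2 probe set differed from control by 0.34, with overlap, and the second by 0.07. RAB20, a small GTPase of endosomes, was at 4.72 and 4.58 with rosiglitazone, near the floor of 4, and at 6.07 and 5.61 with the combination (1.19 ± 0.30), with control at 5.82 and 5.62. PIM2, a serine kinase that favours survival, was at 5.57 and 5.59 against 6.45 and 6.40 (0.85 ± 0.21), with control at 6.47 and 6.22. For RAB20 and PIM2 the combination arrays thus stood near the control arrays, and the rosiglitazone arrays stood below both. Picking genes by this difference favours those with low rosiglitazone arrays, so the place beside control is no separate result. LRP3, a receptor of the LDL receptor family, differed by 0.83 ± 0.19, ENTR1, a regulator of endosomal traffic, by 0.70 ± 0.18, EPS8L2, an actin regulator, by 0.64 ± 0.17, and YBX3, a cold shock protein, by 0.53 ± 0.12. EPS8L2 was also higher without rosiglitazone, by 0.55 ± 0.17, whereas YBX3 differed by -0.01 ± 0.12 there. A second YBX3 probe set gave 0.00 between combination and rosiglitazone.

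The genes of smallest p that were lower without overlap also did not pass the threshold (adjusted p = 0.9997 each, limma). EGLN1, the prolyl hydroxylase that marks HIF for degradation, was at 7.46 and 6.99 with rosiglitazone and 5.94 and 6.29 with the combination, a difference of -1.11 ± 0.25. Its control arrays were at 6.70 and 6.60, between the groups. DCBLD2, a membrane receptor, was a brighter gene of this kind, at 10.06 and 9.72 with rosiglitazone, 8.81 and 9.24 with the combination and 9.12 and 8.69 in control (-0.87 ± 0.23). PCLAF, the PCNA clamp associated factor, was at 11.42 and 11.50 against 11.03 and 11.17 (-0.36 ± 0.11, and -0.13 with a second probe set), with control at 11.07 and 10.87. For DCBLD2 and PCLAF the combination arrays therefore lay close to control, and the rosiglitazone arrays stood above both. Here the choice of genes favours high rosiglitazone arrays in the same way. PAK1IP1, a nucleolar protein of ribosome assembly, was the one of the 10 that was also lower without overlap with carboplatin alone, by -0.69 ± 0.21, beside -0.70 ± 0.21 in the combination.

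OVOL1, a zinc finger factor of epithelia, differed by -1.34 ± 0.36, TNFSF8, the CD30 ligand, by -1.30 ± 0.31, and BCAT1, the cytosolic branched-chain aminotransferase, by -1.24 ± 0.31. ATP13A3, a P-type ATPase, differed by -0.93 ± 0.24, and its second probe set by -0.22. SPDEF, an ETS factor of secretory epithelium, was at 6.64 and 6.60 with rosiglitazone and 5.82 and 5.01 with the combination (-1.20 ± 0.29). The 3 other SPDEF probe sets gave 0.81, 0.36 and -0.45, so the gene has no settled direction.

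**Figure D4:**
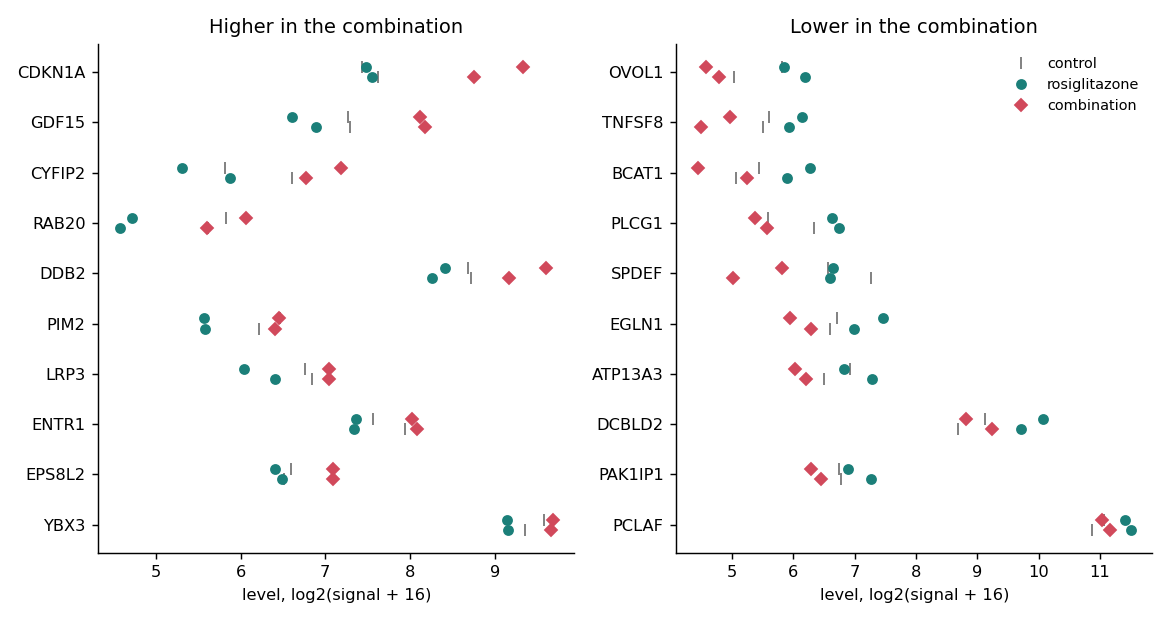
Levels, as log2(signal + 16), of the 10 genes named as higher and the 10 named as lower in the combination, with circles for the 2 rosiglitazone arrays, diamonds for the 2 combination arrays and ticks for the 2 control arrays. Only CDKN1A and GDF15 passed the threshold, and several of the others, such as RAB20 and DCBLD2, have combination arrays near their control arrays. The genes were picked by the difference between combination and rosiglitazone, and their place beside control was not tested.

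Genes that repair crosslinks or signal DNA damage were split. Of 46 measured, 26 were higher and 20 lower, and the median difference was 0.01. Without overlap 5 were higher (10.9%, against 17.1% of all genes) and 4 lower (8.70%, against 13.6%). DDB2 was the member with the largest difference. CHEK1, the checkpoint kinase downstream of ATR, was at 7.25 and 7.64 with rosiglitazone and 6.67 and 7.01 with the combination (-0.61 ± 0.21). MRE11, a nuclease of double-strand break repair, differed by -0.58 ± 0.30.

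Genes of G2 and mitosis were lower more often than higher. Of 41 measured, 29 were lower (47.1% of all genes were), 10 of them without overlap (24.4%, against 13.6% of all genes), and the median difference was -0.09. KIF11, the mitotic kinesin Eg5, was at 8.03 and 8.23 with rosiglitazone and 7.49 and 7.87 with the combination (-0.45 ± 0.19). CCNA2, cyclin A2, differed by -0.30 ± 0.18 (its second probe set by 0.14), HMMR, a spindle protein, by -0.25 ± 0.13, and ASPM, a spindle pole protein, by -0.30 ± 0.17 with overlap. None of the 41 passed the threshold. Over the other settings that keep all arrays, 0 to 10 genes of the list were lower without overlap, with 1 under median scaling. In those settings 743 to 1714 of all genes were lower without overlap, out of a number that changes with the filter. The list count cannot be set against a share for each setting. Without rosiglitazone array 2 the median was -0.02. The median without rosiglitazone was -0.07. Replication and G1/S genes had a median of 0.00, with 19 of 40 higher. POLD1, the catalytic subunit of polymerase δ, was at 7.43 and 7.40 with rosiglitazone and 8.11 and 7.71 with the combination (0.50 ± 0.19). GINS3 of the replicative helicase differed by -0.32 ± 0.17, MCM4 by -0.20 ± 0.16 (its other probe sets ran from -0.42 to 0.37) and RPA3 by -0.16 ± 0.14.

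Of 23 measured genes of the apoptosis machinery, 16 were higher, with a median of 0.05. Without overlap 6 were higher (26.1%, against 17.1% of all genes) and 3 lower (13.0%, against 13.6%). FAS, TNFRSF10B and BAX, described above as p53 targets, were the 3 of smallest p. CYCS, cytochrome c, was lower at 11.23 and 11.26 in the combination against 11.41 and 11.43 with rosiglitazone (-0.18 ± 0.10). Immediate early genes had a median of -0.03, with 10 of 23 higher. KLF4, a zinc finger factor of epithelial differentiation, was at 7.26 and 7.17 with rosiglitazone and 6.84 and 6.84 with the combination (-0.38 ± 0.20), both well above the control levels of 5.78 and 6.10. KLF10 differed by -0.38 ± 0.23, JUNB by 0.28 ± 0.18 and JUND by 0.20 ± 0.12.

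Targets of NF-κB, the inflammatory transcription factor, were lower in 13 of 18 measured genes, 7 of them without overlap (38.9%, against 13.6% of all genes), and none passed the threshold. The median was -0.12, and -0.03 over the 13 genes that a filter at the 60th percentile keeps. CXCL2, a chemokine for neutrophils, was at 7.45 and 7.58 with rosiglitazone and 7.10 and 7.19 with the combination (-0.37 ± 0.16). NFKB1, the precursor of the p50 subunit, differed by -0.27 ± 0.15 and IL6 by -0.25 ± 0.19. The gene of smallest p went the other way, TNFAIP2, at 9.94 and 10.02 against 10.32 and 10.26 (0.31 ± 0.11). The mean level over the 18 genes was 7.23 and 7.17 with rosiglitazone, 7.11 and 7.12 with the combination, 7.38 and 7.39 in control and 7.41 and 7.32 with carboplatin.

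Genes of the ATF4 and unfolded protein response were lower in 16 of 25, with a median of -0.04, and 4 were lower without overlap (16%, near the 13.6% of all genes). PSAT1 of serine synthesis differed by -0.43 ± 0.18, TRIB3, a pseudokinase, by -0.38 ± 0.20, SLC7A11, the cystine transporter, by -0.32 ± 0.16 and CALR, calreticulin, by -0.29 ± 0.17. Of 22 genes of NRF2 and glutathione, 9 were higher. HMOX1, heme oxygenase 1, was at 9.08 and 8.93 with rosiglitazone and 9.47 and 9.21 with the combination (0.33 ± 0.14), above 8.22 and 8.22 in control. ABCC2, an efflux pump of glutathione conjugates, differed by -0.21 ± 0.16, and TXNRD1, thioredoxin reductase, by -0.15 ± 0.12. Of 15 heat shock proteins 10 were higher, with DNAJB1 at 0.20 ± 0.11 (its second probe set at -0.23), HSPB1 at 0.16 ± 0.09 and HSP90AA1 at 0.14 ± 0.08.

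The PPAR target genes, those most directly downstream of rosiglitazone, had nearly the same mean level with and without carboplatin. The mean level of 25 measured PPAR target genes was 8.03 and 8.07 with rosiglitazone and 8.03 and 8.07 with the combination, beside 7.48 and 7.50 in control and 7.49 and 7.49 with carboplatin. Of the 25, 13 were higher and 12 lower with a median difference of 0.01. PDK4, the kinase that turns off pyruvate dehydrogenase, was at 7.28 and 7.34 with rosiglitazone and 6.22 and 7.06 with the combination (-0.67 ± 0.31), and at 5.14 and 5.15 in control. UCP2, an uncoupling protein of mitochondria, was at 8.34 and 8.49 against 8.99 and 8.69 (0.43 ± 0.14), where control was at 8.85 and 8.92. ACSL5, a fatty acyl-CoA synthetase, differed by -0.43 ± 0.29. Sterol synthesis genes were higher in 11 of 17, 4 without overlap (23.5%, against 17.1% of all genes) and 0 lower without overlap, with NSDHL at 0.30 ± 0.17 and LSS, lanosterol synthase, at 0.22 ± 0.16. Their second probe sets gave -0.14 and -0.36, so neither gene has a settled direction. Fatty acid synthesis had 6 of its 10 measured genes higher, and 0 without overlap in either direction (against 17.1% higher and 13.6% lower of all genes).

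Metallothioneins hold zinc and copper through their many cysteines and can also take up platinum. Their genes are near-identical copies, so a probe set may read more than 1 of them. None of the 7 measured was without overlap between the groups, where 17.1% of all genes were higher without overlap and 13.6% lower. MT2A was at 12.27 and 11.96 with rosiglitazone and 12.34 and 12.06 with the combination, a difference of 0.09 ± 0.12 (95% interval -0.18 to 0.35), while control stood at 13.01 and 12.94. MT1X was at 10.67 and 10.32 against 10.64 and 10.35 (0.00 ± 0.16, 95% interval -0.34 to 0.35), with control at 11.59 and 11.51. The other differences were 0.15 ± 0.19 for MT1E, 0.09 ± 0.18 for MT1F, 0.04 ± 0.15 for MT1G, -0.13 ± 0.12 for MT1H and -0.43 ± 0.34 for the dim MT3. The signs of MT1E, MT1F, MT1G, MT1X and MT2A turned under the deposited scaling. Of 11 transport genes of copper and platinum 0 were without overlap, against the same shares of all genes. ABCC2 is given above, and SLC31A1, the copper importer CTR1, differed by 0.27 ± 0.26. ATP7A, a copper-exporting ATPase, differed by 0.23 ± 0.25 and SLC47A1, an organic cation exporter, by -0.17 ± 0.19.

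Of 20 interferon response genes 10 were higher and 10 lower. B2M, the light chain of MHC class I, was at 11.74 and 11.72 with rosiglitazone and 11.34 and 11.49 with the combination (-0.32 ± 0.10), but its other probe set gave 0.06. IFITM3, a membrane protein that limits virus entry, differed by -0.51 ± 0.23, ISG15, a ubiquitin-like modifier, by -0.32 ± 0.21 and HLA-C by 0.23 ± 0.16, although other HLA-C probe sets gave 0.08, -0.06 and -0.07. In the list of glycolysis and hypoxia genes 17 of 27 were higher, with hexokinase HK1 at 0.34 ± 0.15, enolase ENO2 at 0.27 ± 0.14 and isomerase GPI at 0.20 ± 0.11, and EGLN1 was its lowest member. Ribosomal protein genes were split, 21 higher and 19 lower of 40, with RPL18 at -0.20 ± 0.10 (0.47 with another probe set), RPS14 at -0.18 ± 0.10 and RPL34 at 0.29 ± 0.15. Proteasome subunits were higher in 17 of 26, with 6 higher and 6 lower without overlap (23.1% each, against 17.1% and 13.6% of all genes), from -0.38 ± 0.13 for PSMA2 (0.07 with its second probe set) to 0.22 ± 0.13 for PSMD1. PSMC1 differed by 0.21 ± 0.10 and PSMD12 by -0.25 ± 0.15. Of 7 measured replication-dependent histones 4 were higher without overlap (57.1%, against 17.1% of all genes). Over the other settings that keep all arrays this count ran from 0 to 4. That of all genes ran from 216 to 2017 there, out of a number that changes with the filter. The list median of 0.10 ran from -0.04 to 0.22 over 13 other settings. Among the 4 were H2BC5 at 0.38 ± 0.15 (0.00 with a second probe set) and H2BC6 at 0.30 ± 0.19, which are also near-identical copies.

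Epithelial and lung markers were higher in 9 of 11 (81.8%, against 52.9% of all genes), 3 of them without overlap (27.3%, against 17.1%). SFTPC, surfactant protein C, was dim at 5.99 and 5.23 with rosiglitazone and 6.46 and 6.25 with the combination (0.75 ± 0.29). FOXA2, a factor of lung and liver epithelium, was at 6.15 and 6.52 against 6.58 and 7.02 (0.46 ± 0.22), below the control levels of 7.62 and 7.29, and its second probe set gave 0.33. KRT8 differed by 0.25 ± 0.14. CEACAM6, the lower of the 2 markers that went the other way, was at 6.59 and 5.55 with rosiglitazone. With the combination it was at 5.66 and 5.59 (-0.45 ± 0.31), and the groups overlapped. The part of these markers in the differences above was not tested.

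**Figure D5:**
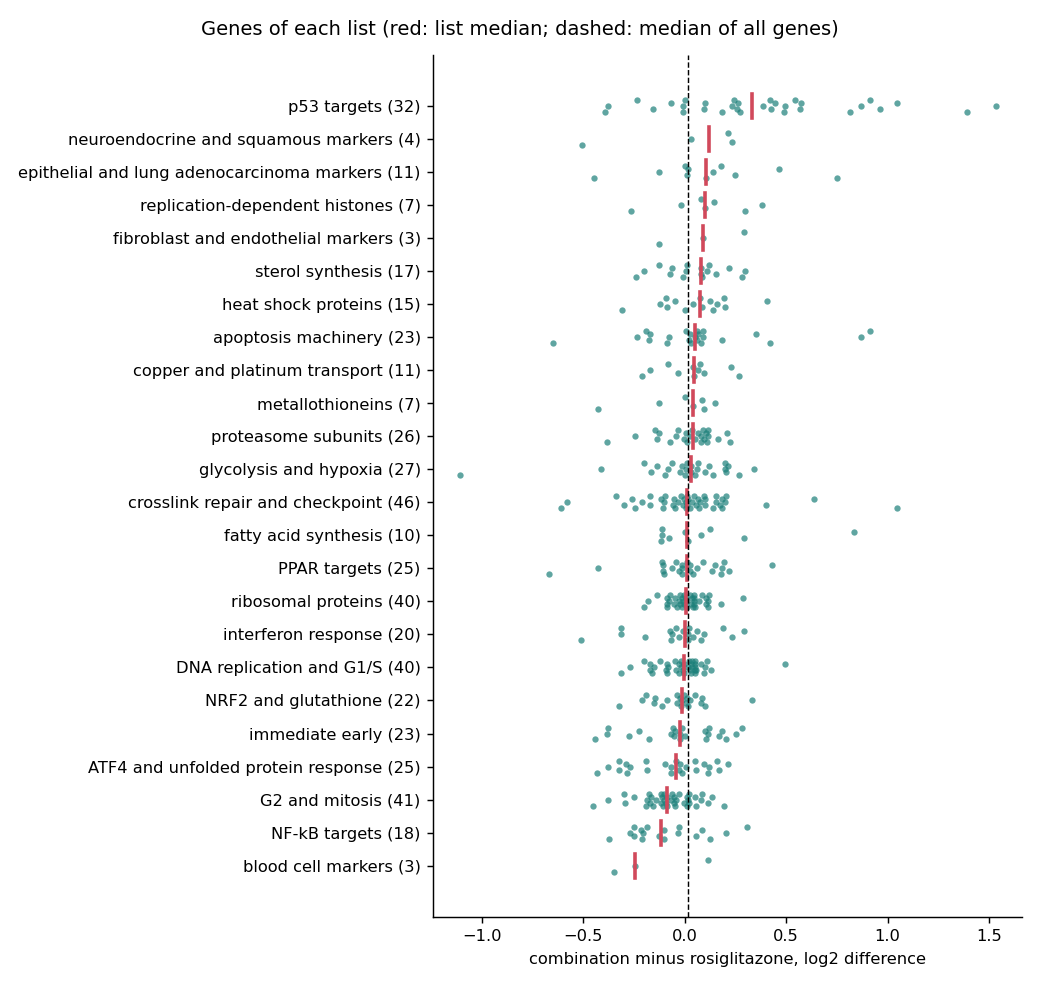
Log2 difference of the combination against rosiglitazone for each measured gene of 24 lists, with the number of genes in brackets, the list median as a red line and the median of all genes, 0.01, dashed. The p53 target list has its median at 0.33, and of the lists with more than 4 genes NF-κB targets lie lowest at -0.12, which was -0.03 with a filter at the 60th percentile.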

How the data were processed

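Expression was measured on 8 one-colour arrays (22283 probe sets), 2 for each of 4 groups taken from the sample titles. The deposited table holds 1 linear intensity value per probe set, while its software, background correction and scaling are not stated in the labels or file header. Array medians spanned 0.43 on the log2 scale. The 68 control probe sets were left out, log2(signal + 16) was quantile normalized over the 8 arrays, and probe sets with a mean below the 40th percentile were dropped, which left 13329. Limma 3.58.1 (R 4.3.3) fitted 1 coefficient per group on all 8 arrays, with eBayes and an intensity trend (4 residual and 7.10 prior degrees of freedom). Tests were two-sided, and an adjusted p (Benjamini-Hochberg, across the 13329 tests) below 0.05 was a call. The fit was tested on simulated data.

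Names come from the platform annotation: 19071 probe sets have 1 gene symbol, 1043 several and 2169 none or no entry, and only those with 1 were named. Of these, 19059 matched RefSeq (GRCh38.p14) by Entrez identifier. The probe set of highest mean represented each of 8023 genes. Named were the 10 genes of smallest p in each direction without overlap (called genes first), 3 a direction for the interaction, up to 4 of smallest p from a list, all measured p53 targets and metallothioneins, and genes called for carboplatin alone. The unnamed probe sets were singled out after their values were seen, as were the unlisted probe sets of a gene and KRT18. The members and the 24 gene lists were chosen with earlier results of these data known. Alternatives were other scalings, pseudocounts, filters, fits and arrays left out. Replicate 1 minus replicate 2 correlated by 0.094 between rosiglitazone and combination and by -0.063 between control and carboplatin. The 6 pairs of groups ran from -0.11 to 0.253, highest between carboplatin and combination, and the labels state no pairing, so the numbers were not used as pairs.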

Additional observations from a re-analysis of the deposited data

How the results depend on the processing

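With 2 arrays a group, small differences of dim probe sets cannot be resolved, and calls depended on the fit. Array brightness as a covariate, a filter at the 60th percentile and the median of all probe sets of a gene were chosen after seeing the data. So were list medians without the filter or with the replicate block. Of 3 probe sets called for the combination against rosiglitazone, 1 was left with the deposited scaling (221382_at, lower, and none of the 3) and 0 without the filter, without the intensity trend or with only the groups compared, and 0 to 3 with an array left out. Of 2 called for carboplatin alone, 0 were left with the deposited scaling, median scaling, no filter or no trend, 1 with only the groups compared, and 0 to 2 with an array left out. With the replicate block, 0 were called in either comparison, although the numbers share only a name and the pairing has no support in the labels. For the interaction, 3 were called with the deposited scaling and 0 in the main fit and the other 16 alternatives run. The p53 target median of 0.33 was 0.19 with the deposited scaling, 0.40 with a pseudocount of 1, 0.24 with 64, 0.26 without the filter and 0.27 with the filter at the 60th percentile, which also moved the NF-κB target median from -0.12 to -0.03 (13 genes). Over named genes and alternatives, 2164 values kept sign and side of the threshold, 34 lost it, 3 gained it and 45 turned sign. With the deposited scaling the sign turned for SAT1 (-0.063), TP53I11 (-0.00842), GTSE1 (-0.15), MT1E (-0.00230), MT2A (-0.041), MT1F (-0.067), MT1G (-0.12) and MT1X (-0.15). With median scaling it turned for the CDKN1A interaction (0.024), GTSE1 (-0.00905) and MT1X (-0.016). With brightness as a covariate it turned for RCHY1 (0.0055), GTSE1 (-0.098), MT1E (-0.024), MT1F (-0.037), MT1G (-0.063) and MT1X (-0.11). With an array left out, the ranges that crossed 0 were -0.31 to 0.27 for the CDKN1A interaction, -0.77 to 0.012 for FERMT1, -0.094 to 1.19 for MDM2, -0.033 to 0.22 for SAT1, -0.20 to 0.057 for RCHY1, -0.28 to 0.48 for TP53I11, -0.081 to 0.059 for XPC, -0.38 to 0.36 for GADD45A and -0.12 to 0.13 for GTSE1. They were also -0.96 to 0.092 for MT3, -0.12 to 0.42 for MT1E, -0.070 to 0.24 for MT2A, -0.12 to 0.31 for MT1F, -0.17 to 0.25 for MT1G, -0.18 to 0.18 for MT1X and -0.016 to 0.56 for SLC31A1. A group left with 1 array is assumed to vary like the others. The cause of these changes was not tested.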
